A study of Mus musculus with 12 samples.

Results

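Earle's balanced salt solution (EBSS), a buffered salt and glucose solution without amino acids, serum or growth factors, was set against full medium in mouse embryonic fibroblasts, which the labels call a cell line, labelled wildtype, with 3 libraries in each medium. The EBSS group is labelled wildtype, without tamoxifen, and spent 16 hours in EBSS. The full medium group is labelled wildtype, also without tamoxifen, and spent 16 hours in full DMEM, the growth medium that held 10% serum. Cells of both groups, like those of the other 6 libraries of the series, carry Rbbp5 flox/flox and Rosa26 CRE +/+ alleles. By the labels, both groups hold the Cre without the 7 days of tamoxifen that define the knockout label. Against the labels, Rbbp5 was lower in the wildtype-labelled EBSS libraries than in the knockout-labelled EBSS libraries, as given below. RBBP5 belongs to the core of the SET1/MLL enzymes, which methylate lysine 4 of histone H3. Genes were taken when the deposited table listed at least 1 TPM (a transcript level per length and per library total) in at least 3 of these 6 libraries, which left 12150 of 25117 gene symbols. Of these, 814 passed through full medium libraries alone and 97 through EBSS libraries alone. The former had to be lower in EBSS and the latter higher. Embryonic fibroblasts come from dissociated embryos and are a mixed mesenchymal culture. The labels number the replicates and do not say whether they came from separate embryos or cultures, so the p-values measure the spread between these libraries, which may be technical.

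Removal of amino acids and serum is known to act through several sensors. The kinase mTORC1 is switched off, which represses translation of mRNAs that begin with a pyrimidine tract (ribosomal proteins above all) and lets the factors TFEB and TFE3 enter the nucleus, where they bind the CLEAR element of lysosomal and autophagy genes. The kinase GCN2 senses uncharged tRNA and phosphorylates eIF2alpha, which favours translation of ATF4, the activator of amino acid synthesis and transport genes. Loss of serum removes the mitogen signals that keep immediate early, cell cycle and YAP/SRF target genes on, and the lipoproteins that hold the sterol-sensing SREBP factors in check.

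The values are relative within each library, and the media differed in their distribution. The median TPM of the tested genes was 11.0, 11.6 and 11.4 in the EBSS libraries, against 24.5, 24.3 and 24.5 in the full medium libraries. A small set of abundant RNAs held more of the EBSS total: the 79 cytosolic ribosomal protein genes took 35.3%, 33.9% and 32.7% of the summed TPM in EBSS and 15.4%, 15.1% and 15.3% in full medium. The median change of all tested genes, EBSS minus full on the log2(TPM + 1) scale, was -0.98 as deposited and -0.09 after median-of-ratios scaling, which divides each library by the median ratio of its genes to their geometric mean. The factors were 0.679, 0.715 and 0.717 for EBSS, against 1.42, 1.41 and 1.43 for full medium. Both scales are given for all tested genes and for some lists and genes, and other levels and changes are as deposited. The words "rose" or "fell" are used of a gene only where limma's moderated test called it in the same direction on both scales. The threshold was a Benjamini-Hochberg adjusted p under 0.05. Total RNA per cell was not measured, so neither scale gives amounts per cell, and fewer cells of a type cannot be told apart from less RNA per cell.

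EBSS replicate 3 stood apart from the other EBSS libraries. It differed at least 2-fold from replicates 1 and 2 at 1614 and 1693 tested genes, whereas replicates 1 and 2 differed at 106 and the full medium pairs at 16 to 43. It listed 832 tested genes at 0, against 109 and 128 in EBSS replicates 1 and 2 and 3 to 32 in full medium. It also held transcripts that other tissues are known for, such as Avp, the vasopressin gene, at 0.928, 0.535 and 15.3 TPM in EBSS and 0, 0 and 0 TPM in full medium, and Snap25, a synaptic SNARE, at 0.0381, 0 and 12.4 TPM in EBSS and 0.0373, 0.0324 and 0.01106 TPM in full medium. Alb, the gene of serum albumin, was at 1.92, 2.82 and 75.5 TPM in EBSS replicates 1, 2 and 3 and between 0.412 and 0.599 TPM in full medium. Of 20 hepatocyte genes listed after this was seen, 19 were highest in EBSS replicate 3. Their summed TPM was 25.6, 30.9 and 306 in EBSS replicates 1, 2 and 3, against 25.3, 29.1 and 28.2 in full medium, where Hp made up 22.04, 25.8 and 24.7 of it. Without Hp the sums were 24.8, 29.96 and 294 TPM in EBSS and 3.22, 3.37 and 3.56 TPM in full medium, so EBSS replicates 1 and 2 also lay above full medium. Lyz2, the lysozyme of macrophages, was at 2.22, 2.93 and 48.4 TPM in EBSS and 0.315, 0.358 and 0.28004 TPM in full medium. Across the 10 macrophage markers the summed TPM was 23.05, 27.5 and 105 in EBSS and 29.3, 29.4 and 30.4 in full medium, with Adgre1 and Tyrobp at 0 in all 3 full medium libraries. In all, 40 genes were at 10 TPM or more in EBSS replicate 3 and at least 5-fold above each of the other 5 libraries, against 7, 7, 2, 0 and 0 genes for EBSS replicates 1 and 2 and full medium replicates 1, 2 and 3. The part of this material in the results was not tested; the counts below are also given without this library where they differ most.

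The targeted gene was read in every library first. Rbbp5 (chr1:132477365-132505659, plus strand, mm10) was at 12.4, 13.97 and 11.8 TPM in the labelled wildtype EBSS libraries, against 26.2, 25.7 and 26.2 TPM in labelled wildtype full medium. In the libraries labelled knockout it was at 31.9, 24.6 and 23.01 TPM in EBSS and 7.47, 9.34 and 8.31 TPM in full medium. The wildtype-labelled groups did not overlap as deposited (change -0.98 ± 0.09 SE, adjusted p = 1.29e-04), and the change after scaling was -0.02 (adjusted p = 0.874). Other genes divided the 12 libraries far more sharply, and in the same way. Gjb2 (chr14:57098600-57104702), a connexin, was listed at 0 in all 3 wildtype-labelled EBSS libraries and was at 41.2, 40.6 and 42.6 TPM in wildtype-labelled full medium. It was at 4.03, 49.7 and 44.6 TPM in knockout-labelled EBSS and 0.0649, 0.199 and 0.166 TPM in knockout-labelled full medium. Gjb2 had passed the filter through full medium alone and so had to be lower in wildtype-labelled EBSS. H19 (chr7:142575529-142578143), an imprinted noncoding RNA, was at 0.445, 1.02 and 2.19 TPM in wildtype-labelled EBSS, against 186, 227 and 199.7 TPM in wildtype-labelled full medium. In the knockout-labelled libraries H19 was at 229, 317 and 298 TPM in EBSS and 0.786, 1.13 and 1.11 TPM in full medium. Crabp1, which binds retinoic acid, was at 3.42, 2.5005 and 3.86 TPM in wildtype-labelled EBSS and 166, 196 and 159 TPM in wildtype-labelled full medium, and at 213, 227 and 239.6 TPM in knockout-labelled EBSS and 0.661, 0.541 and 0.282 TPM in knockout-labelled full medium. For these genes the EBSS libraries labelled wildtype lay by the full medium libraries labelled knockout, and the EBSS libraries labelled knockout by the full medium libraries labelled wildtype. Whether the medium or the genotype behind the EBSS labels sets such a difference cannot be told apart here, so the group is called the EBSS libraries labelled wildtype, and every direction below is that of the labels.

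**Figure D1:**
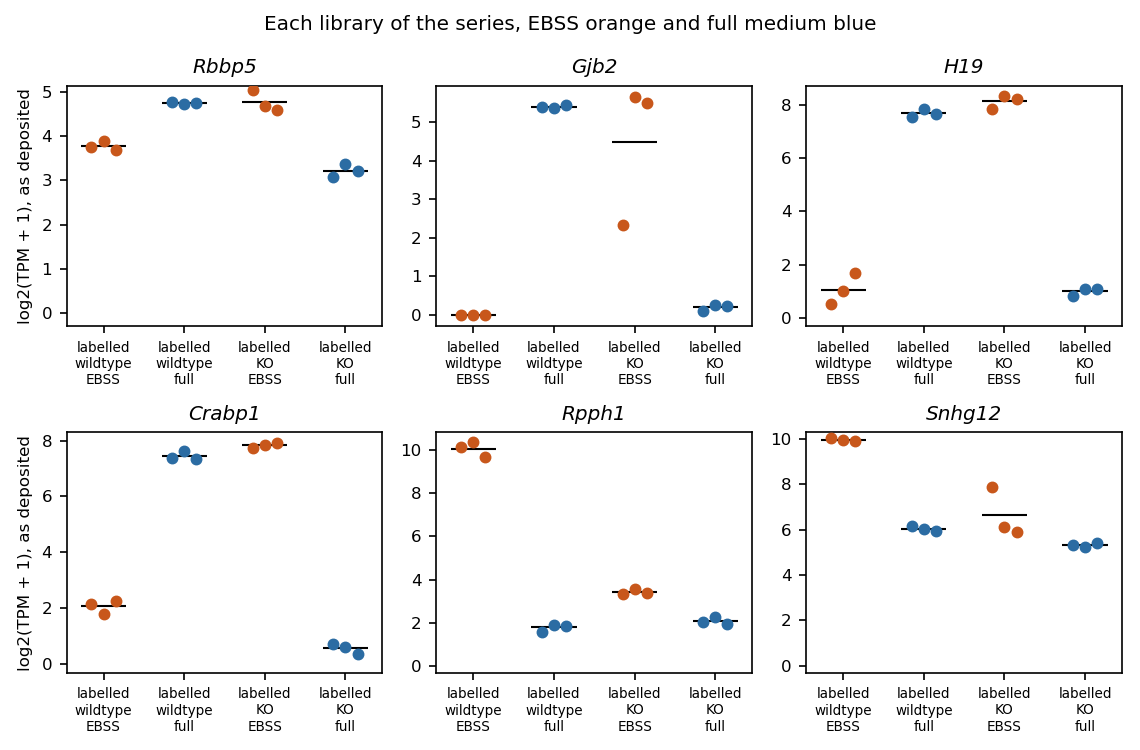
Levels of 6 genes in each of the 12 libraries, as log2(TPM + 1) as deposited on the vertical axis, with the 4 labelled groups on the horizontal axis (EBSS orange, full medium blue, line at the group mean). Gjb2, H19 and Crabp1 pair the wildtype-labelled EBSS libraries with the knockout-labelled full medium libraries, while Rpph1 and Snhg12 were highest in wildtype-labelled EBSS.

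As deposited, 1155 genes were called higher in EBSS (9.51% of those tested) and 8707 lower (71.7%). After scaling, 3649 were called higher (30.0%) and 3923 lower (32.3%), so that the share of calls that were higher was 11.7% as deposited and 48.2% after scaling. Calls in the same direction on both scales numbered 1155 higher (9.51%) and 3923 lower (32.3%), and these are the percentages against which each group of genes below is read. Of them, 456 rose (3.75%) and 1869 fell (15.4%) at least 2-fold on both scales. Every gene called higher as deposited was also called higher after scaling, and every gene called lower after scaling was also called lower as deposited. A rise therefore rests on the deposited call and a fall on the scaled call. Without EBSS replicate 3 the counts on both scales were 1483 higher (12.2%) and 5094 lower (41.9%). Some lists not marked so below held members that passed the filter through 1 medium alone. The tRNA synthetase, glycolysis, immediate early and fibroblast marker lists each held 1 through full medium, and the macrophage list 1 through EBSS. As background for length, the longest annotated transcript had a median of 2622.5 bases among the genes that rose, 3771 bases among those that fell and 3357.5 bases among all tested, over the 98.3% of genes found in GENCODE M21. In 5 equal bins of genes by that length, from the shortest to the longest, the share that rose was 15.8%, 11.0%, 8.12%, 6.57% and 5.61%, and the share that fell was 18.5%, 30.0%, 36.4%, 37.0% and 40.1%.

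**Figure D2:**
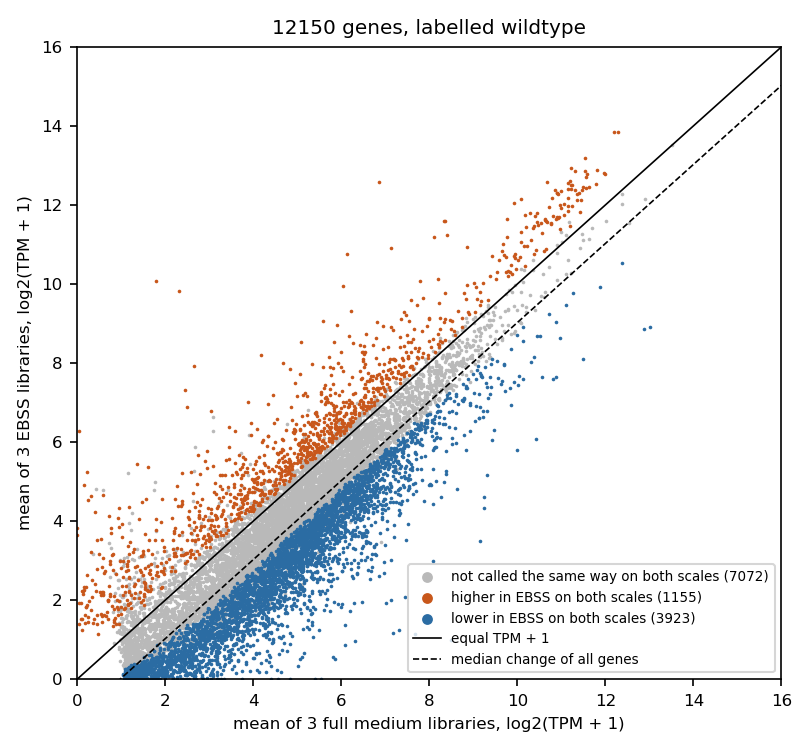
Mean of the 3 EBSS libraries (vertical) against the mean of the 3 full medium libraries (horizontal), both as log2(TPM + 1) as deposited, 1 point for each of 12150 genes. Most points lie under the line of equal levels, along the dashed line of the median change of -0.98; 1155 genes were higher and 3923 lower on both scales.

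**Figure D3:**
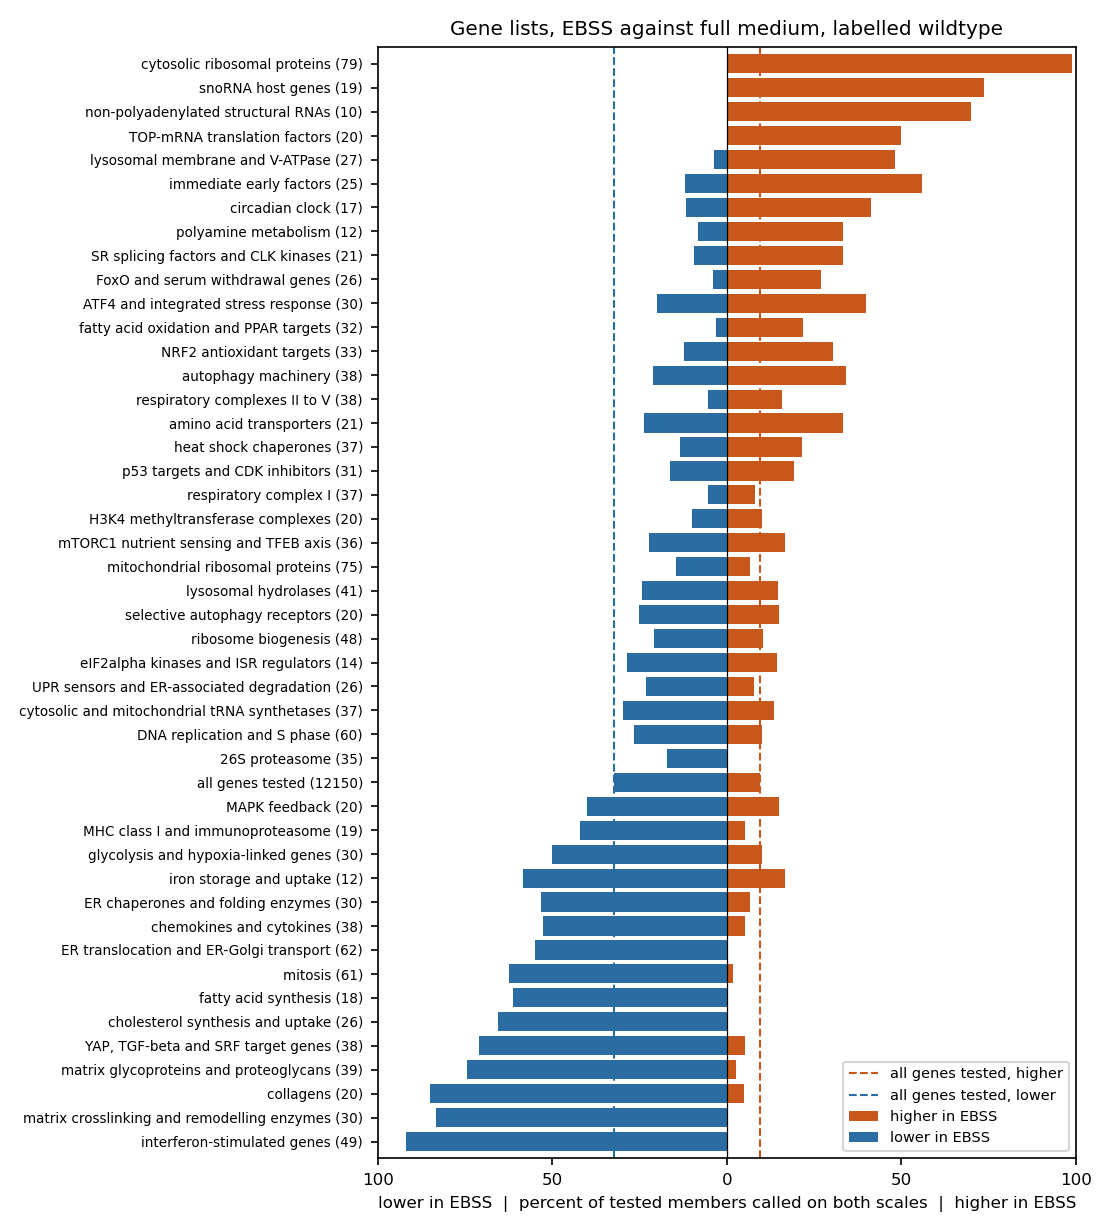
Percent of tested members of each gene list (number tested in brackets) that were higher in EBSS (orange, to the right) or lower in EBSS (blue, to the left) on both scales. Dashed lines mark 9.51% and 32.3%, the shares of all tested genes; cytosolic ribosomal proteins stand at one end and interferon-stimulated genes at the other.

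Noncoding RNAs of the translation and processing machinery gave the largest rises. Of 28 structural RNAs listed that carry no poly(A) tail, 17 were in the table and 10 passed the filter, 2 of them through EBSS libraries alone; 7 rose and 0 fell, with a median change of 4.09 as deposited and 4.83 after scaling. Rpph1 (chr14:50807449-50807767), the RNA of ribonuclease P, which trims the 5′ end of tRNA precursors, was at 1102, 1302 and 809 TPM in EBSS and 2.01, 2.78 and 2.62 TPM in full medium (change 8.25 ± 0.19 SE, adjusted p = 2.25e-06). All 3 EBSS libraries were high and the groups were far apart. Rmrp, the RNA of the related RNase MRP that cuts ribosomal RNA precursors, was at 869, 1033 and 829 TPM in EBSS and 5.55, 3.06 and 3.28 TPM in full medium. The ribosomal RNA precursor Rn45s was at 1454, 2105 and 1610.5 TPM in EBSS, against 68.8, 68.3 and 69.3 TPM in full medium. The small cytoplasmic RNA Rn4.5s was at 4815, 4397 and 9159 TPM in EBSS and 88.3, 136 and 121 TPM in full medium, and EBSS replicate 3 was its highest library. Rnu6, the U6 spliceosomal RNA, was at 3090.4, 2404 and 3732 TPM in EBSS and 337, 316 and 319 TPM in full medium. Rnu3a, the U3 RNA of rRNA processing, was at 45.5, 16.4 and 48.4 TPM in EBSS and 0, 0.198 and 0.293 TPM in full medium. Rnu3a and Snord118 were the 2 that passed through EBSS alone and so had to be higher. Snord118, the U8 RNA, also passed the test, at 5.97, 2.9998 and 79.1 TPM in EBSS and 0, 0.313 and 0 TPM in full medium, with EBSS replicate 3 far the highest; its call on both scales was lost without full medium replicate 1, 2 or 3. The other 3 members did not pass: Scarna13 was at 2.604, 3.21 and 0 TPM in EBSS and 0.555, 2.001 and 2.13 TPM in full medium, Terc, the telomerase RNA, at 1.12, 1.097 and 0 TPM in EBSS and 2.01, 0.8603 and 1.19 TPM in full medium, and Snord17 at 0.825, 1.74 and 0 TPM in EBSS and 3.61, 2.15 and 1.86 TPM in full medium. The labels give the RNA as polyA RNA, and the levels of RNAs without such a tail depend on how much of them the selection let through. Several of these RNAs have many near-identical copies in the genome, so their levels depend on how reads were shared out among the copies.

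Small nucleolar RNAs as a class did not move as one. Of 49 annotated snoRNAs and scaRNAs that passed the filter, 8 rose, among them Snord14c (108, 93.9 and 519 TPM in EBSS and 0, 7.87 and 8.13 TPM in full medium) and Snora78 (193, 169 and 117 TPM in EBSS and 2.28, 5.83 and 5.26 TPM in full medium), and 7 fell. EBSS replicate 3 listed 37 of the 49 at 0, against 11 and 12 in EBSS replicates 1 and 2 and at most 10 in a full medium library. Most of their hosts rose. The snoRNA host genes are spliced transcripts whose introns carry the snoRNAs and whose exons are mostly short-lived, because translation directs them to nonsense-mediated decay. Of 19 hosts tested, 14 rose and 0 fell (17 and 1 without EBSS replicate 3), with a median change of 2.02 as deposited and 3.02 after scaling. Snhg12 was at 1043, 969 and 943 TPM in EBSS and 69.3, 64.1 and 60.6 TPM in full medium (change 3.91 ± 0.07 SE, adjusted p = 1.34e-06). Zfas1 was at 1999, 1815 and 1934 TPM in EBSS, against 135, 141 and 143 TPM in full medium, and Snhg16 at 273, 293 and 195 TPM in EBSS, against 24.4, 24.2 and 25.5 TPM in full medium. In each of these 3 hosts the lowest EBSS library lay well above the highest full medium library. As a share of the summed TPM the hosts made up 1.11%, 1.04% and 1.08% in EBSS and 0.166%, 0.165% and 0.165% in full medium.

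The cytosolic ribosomal protein genes were higher almost without exception. Of 79 tested, 78 rose (98.7%) and none fell; the changes ran between 0.17 and 1.72 with a median of 0.94 as deposited, and the median was 1.96 after scaling. Rps15 was at 8402, 8578 and 6573 TPM in EBSS and 2062, 2653 and 2424 TPM in full medium (change 1.72 ± 0.14 SE, adjusted p = 6.89e-05). Rpl41, which encodes the smallest ribosomal protein, was at 14693, 16543 and 13364 TPM in EBSS, against 5106, 4245 and 4678 TPM in full medium. The exception was Rps13, at 1473, 1376 and 1057 TPM in EBSS and 1168, 1094 and 1169 TPM in full medium, whose change of 0.17 as deposited did not pass (adjusted p = 0.244). Of 20 translation factors listed for mRNAs that also begin with a pyrimidine tract, 10 rose and none fell, among them the elongation factors Eef2 (5765, 6199.6 and 5611 TPM in EBSS and 2401, 2401 and 2430.4 TPM in full medium) and Eef1b2 (1074, 964 and 963 TPM in EBSS and 468, 452 and 461 TPM in full medium). As deposited 3 of the 20 were called lower, and after scaling 19 were called higher and 0 lower. A C at the annotated start followed by at least 4 pyrimidines was found at 14 of the 58 ribosomal protein genes with a RefSeq promoter. It was found at 3 of 14 of these translation factors, at 3 of 16 snoRNA hosts and at 3.03% of 9639 tested genes. Annotated starts are imprecise, so these shares are descriptions. Of 48 ribosome biogenesis genes, whose products assemble ribosomes, 5 rose and 10 fell, Dkc1, the pseudouridine synthase dyskerin, being at 18.7, 20.2 and 13.2 TPM in EBSS and 103, 109 and 103 TPM in full medium. After scaling alone 24 of the 48 were called higher and 10 lower. Of 75 mitochondrial ribosomal protein genes 5 rose and 11 fell (17 fell without EBSS replicate 3, and 3 rose without EBSS replicate 1 or 2 or full medium replicate 1 or 3). On the scaled values alone 24 of the 75 were called higher and 11 lower. Ribosomal protein genes have many processed pseudogenes, and how reads were shared with them is not given in the sources used here.

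Genes of the integrated stress response rose more often than all tested genes, though some fell. Of 30 genes of the ATF4 list that were tested, 12 rose (40%) and 6 fell (20%), against 9.51% and 32.3% of all tested genes. The median change was -0.30 as deposited and 0.70 after scaling, and 3 fell without full medium replicate 1. Of the 30, 1 had passed the filter through EBSS alone and so had to be higher. Ppp1r15a, the GADD34 subunit that directs dephosphorylation of eIF2alpha, was at 639.9, 638 and 626 TPM in EBSS and 72.9, 77.2 and 71.04 TPM in full medium (change 3.09 ± 0.05 SE, adjusted p = 1.31e-06), and the groups were far apart. Atf3, a transcription factor induced by stress, was at 123, 129 and 122 TPM in EBSS and 21.4, 18.1 and 18.1 TPM in full medium. Ddit3, which encodes the factor CHOP, was at 557, 664 and 653 TPM in EBSS, against 186, 172 and 157 TPM in full medium. Atf4 itself was at 981, 968 and 941 TPM in EBSS and 511, 531 and 552 TPM in full medium (change 0.86 as deposited, 1.87 after scaling). Asns, the asparagine synthetase, was at 119, 106 and 163 TPM in EBSS and 144, 129 and 137 TPM in full medium, groups that overlap as deposited (change -0.10, adjusted p = 0.569; 0.90 after scaling, adjusted p = 0.00321). Cth, the cystathionine lyase of cysteine synthesis, fell to 3.18, 2.9997 and 0.314 TPM in EBSS, against 16.8, 16.1 and 16.6 TPM in full medium. After scaling, the calls of Cth, of Eif2ak1 and of Cpt2 below were lost without any 1 of the full medium libraries. Stc2, a secreted glycoprotein, fell to 0.7096, 0.619 and 1.89 TPM in EBSS, against 22.8, 25.02 and 23.5 TPM in full medium.

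The kinases and exchange factors around eIF2alpha were called about as often as all tested genes. Of 14, 2 rose (14.3%) and 4 fell (28.6%), against 9.51% and 32.3% of all tested genes (3 and 4 of the 14 without EBSS replicate 3). Atf5, a factor made through the same translational control as ATF4, rose to 370.4, 395 and 425 TPM in EBSS, against 104, 118 and 106 TPM in full medium. Eif2b2 rose by 0.27 as deposited. Eif2ak2, the interferon-inducible kinase PKR, fell to 5.05, 4.48 and 1.48 TPM in EBSS, against 42.2, 44.9 and 44.5 TPM in full medium, and Eif2ak1, the haem-regulated kinase, fell to 20.8, 17.1 and 9.31 TPM in EBSS, against 64.4, 66.2 and 62.3 TPM in full medium. Of the exchange factor genes, Eif2b3 (change -2.59) and Eif2b1 (-1.54) fell. Members that missed the rule were Eif2ak4, the kinase GCN2 (11.5, 13.3 and 8.12 TPM in EBSS and 27.99, 29.5 and 28.96 TPM in full medium), its partner Gcn1 (-0.64 as deposited, 0.34 after scaling), its inhibitor Impact (0.05 and 1.04) and Eif2ak3, the kinase PERK (-0.26 and 0.67). The same holds for Eif2b5 (-0.30 and 0.70), Eif2b4 (-0.89 and 0.10), Ppp1r15b (-0.33 and 0.66) and Eif2s1, which encodes eIF2alpha (-1.12 and -0.11).

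Of 21 transporters tested 7 rose and 5 fell: Slc38a2, the carrier SNAT2 known to respond to amino acid loss, was at 291, 277 and 271 TPM in EBSS and 187, 171 and 187 TPM in full medium. Slc38a1, its relative, fell to 9.17, 7.89 and 6.15 TPM in EBSS, against 43.5, 42.5 and 42.98 TPM in full medium. Of 37 tRNA synthetase genes 5 rose and 11 fell (5 and 14 without EBSS replicate 3, 7 lower without full medium replicate 1), and the 13.5% and 29.7% this makes lie near the 9.51% and 32.3% of all tested genes. The alanine enzyme Aars rose to 261, 309 and 295 TPM in EBSS, against 188, 181 and 174 TPM in full medium, while the aspartate enzyme Dars fell to 24.6, 22.8 and 15.5 TPM in EBSS, against 93.8, 93.7 and 97.6 TPM in full medium. The C/EBP-ATF element through which ATF4 acts (TGATGNAAT on either strand) was searched in the 250 bases before the start. It was found at 0 of 15 amino acid transporters with a RefSeq promoter and at 0.436% of all 9639. Among ATF4-list genes 2 of 27 held it. The other match was in Pycr1, which fell; the one shown is in Nupr1, a small stress-induced nuclear protein, at 987, 755 and 886 TPM in EBSS and 302, 386 and 289 TPM in full medium. Its element, on the strand opposite to the gene, is shown in capitals, from RefSeq, GRCm38.p6, chr7:126625548-126625607, minus strand:
Nupr1: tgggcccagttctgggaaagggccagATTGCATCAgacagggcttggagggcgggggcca

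Autophagy genes moved in both directions. Autophagy wraps cytoplasm in a double membrane that fuses with the lysosome, and its ATG8 proteins coat that membrane. Of 38 genes of the machinery 13 rose (34.2%) and 8 fell (21.1%), against 9.51% and 32.3% of all tested genes. Without any 1 of the full medium libraries 5 fell. The ATG8 gene Gabarapl1 was at 378, 375 and 482 TPM in EBSS and 70.01, 73.7 and 69.8 TPM in full medium (change 2.51 ± 0.11 SE, adjusted p = 8.27e-06). Its relative Gabarap was at 1181, 1164 and 1019.9 TPM in EBSS, against 293, 299 and 289 TPM in full medium. Ulk1, the initiating kinase, rose to 50.6, 52.9 and 37.4 TPM in EBSS, against 33.1, 32.7 and 32.2 TPM in full medium (change 0.49, adjusted p = 0.0149), and missed the threshold as deposited without EBSS replicate 1. Stx17, the fusion SNARE, fell to 1.99, 1.75 and 0.529 TPM in EBSS, against 9.91, 9.61 and 9.73 TPM in full medium, and Atg4c, a protease that processes ATG8 proteins, fell to 1.41, 1.33 and 0.197 TPM in EBSS, against 8.71, 7.404 and 8.23 TPM in full medium. Of 20 receptor genes 3 rose and 5 fell. The cargo receptor Sqstm1 (p62) rose to 1078, 1035 and 1019.8 TPM in EBSS, against 516, 545 and 496 TPM in full medium, while Bnip3, a mitophagy receptor and hypoxia target, fell to 19.5, 21.4 and 32.8 TPM in EBSS, against 154, 159.9 and 151 TPM in full medium. Among 36 genes of the mTORC1 and TFEB axis 6 rose and 8 fell, Mios of the GATOR2 complex falling to 2.37, 2.35 and 0.442 TPM in EBSS, against 20.7, 20.1 and 20.4 TPM in full medium. Tfeb was at 10.8, 10.05 and 6.78 TPM in EBSS and 10.4, 10.98 and 10.8 TPM in full medium and was not called as deposited (change -0.22, adjusted p = 0.276; 0.70 after scaling, adjusted p = 0.0211).

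Genes of the lysosomal membrane and of its proton pump, the V-ATPase, rose more often than they fell. Of 27 membrane and pump genes 13 rose (48.1%) and 1 fell, with a median change of 0.26 as deposited and 1.27 after scaling; without EBSS replicate 3, 14 rose and 2 fell. The pump subunit Atp6v0b was at 1059, 1179 and 1013 TPM in EBSS and 230.1, 211 and 221 TPM in full medium (change 2.29 ± 0.07 SE, adjusted p = 4.09e-06), and Atp6v0d1 at 302, 324 and 299 TPM in EBSS, against 90.02, 87.7 and 96.1 TPM in full medium. Mcoln1, the lysosomal calcium channel, was at 93.3, 113 and 115 TPM in EBSS and 38.2, 44.7 and 43.8 TPM in full medium, and Ctns, the cystine exporter, at 30.9, 34.6 and 39.8 TPM in EBSS and 12.96, 12.3 and 11.96 TPM in full medium. The member that fell was Atp6v0a2, a pump subunit of the Golgi, at 11.9, 12.2 and 13.6 TPM in EBSS and 53.01, 52.8 and 53.7 TPM in full medium. Of 41 hydrolases 6 rose (14.6%) and 10 fell (24.4%), against 9.51% and 32.3% of all tested genes. After scaling alone 20 of the 41 were called higher and 10 lower. Gla, alpha-galactosidase A, rose to 137, 159 and 131 TPM in EBSS, against 35.5, 36.1 and 37.3 TPM in full medium, and Ctsd, cathepsin D, to 1169, 1242 and 1111 TPM in EBSS, against 618, 708 and 665 TPM in full medium. The heparan sulfate enzyme Ids fell to 3.15, 3.74 and 4.18 TPM in EBSS, against 32.5, 27.98 and 29.999 TPM in full medium. Sgsh, of the same pathway, fell to 2.11, 2.15 and 0.377 TPM in EBSS, against 12.8, 13.1 and 12.4 TPM in full medium.

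The CLEAR element bound by TFEB (TCACGTGA, its own reverse complement, which contains the E-box CACGTG) was searched in the 250 bases before each annotated start. It was found at 3 of 33 hydrolases, at 4 of 21 membrane and pump genes, at 2 of 31 autophagy genes and at 1.87% of all 9639 tested genes with a promoter. Among selective autophagy receptors 1 of 18 held it and was not called on both scales. It was found at 0 of 32 genes of the mTORC1 and TFEB axis. Of the 2 autophagy genes 0 rose and 1 fell. Of the 7 lysosomal genes that held it 5 rose and none fell. These 5 are shown because they are the lysosomal genes that both rose and carry the element (capitals), 60 bases each, 5′ to 3′ in the direction of the gene, from RefSeq, GRCm38.p6. Gla is at chrX:134601196-134601255 (minus strand), Ctsd at chr7:142387893-142387952 (minus), Ctsa, cathepsin A, at chr2:164833713-164833772 (plus), Mcoln1 at chr8:3500447-3500506 (plus) and Atp6v1a, a catalytic pump subunit, at chr16:44139358-44139417 (minus):
Gla: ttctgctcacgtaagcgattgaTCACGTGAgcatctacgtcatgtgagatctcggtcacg
Ctsd: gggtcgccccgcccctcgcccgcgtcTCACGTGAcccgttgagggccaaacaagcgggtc
Ctsa: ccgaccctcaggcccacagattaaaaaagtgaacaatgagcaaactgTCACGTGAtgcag
Mcoln1: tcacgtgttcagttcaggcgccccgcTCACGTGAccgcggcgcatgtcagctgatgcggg
Atp6v1a: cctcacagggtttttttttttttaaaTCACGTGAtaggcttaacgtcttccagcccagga
The element begins 228, 99, 13, 46 and 132 bases before the start in that order, and Gla has 2 copies of which 1 lies in the stretch shown. Ctsa was at 437, 499 and 413 TPM in EBSS and 379, 379.95 and 363 TPM in full medium (change 0.26 as deposited, adjusted p = 0.0205, a call lost without any 1 of the full medium libraries), and Atp6v1a at 90.4, 104 and 97.6 TPM in EBSS and 81.2, 75.3 and 80.1 TPM in full medium (change 0.30). A match describes these letters alone.

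Lipid synthesis genes fell without an exception among those called on both scales. Of 26 cholesterol synthesis and uptake genes 17 fell (65.4%) and none rose, with a median change of -2.00 as deposited and -1.01 after scaling. Cyp51, the lanosterol demethylase, was at 16.2, 17.3 and 21.96 TPM in EBSS and 159.7, 155 and 163 TPM in full medium (change -3.05 ± 0.12 SE, adjusted p = 6.30e-06). Hsd17b7, a ketosteroid reductase of the later steps, was at 1.77, 2.07 and 1.15 TPM in EBSS, against 21.6, 20.9 and 21.7 TPM in full medium. Hmgcs1, a synthase of the early steps, was at 13.5, 13.02 and 11.6 TPM in EBSS, against 93.4, 90.99 and 95.5 TPM in full medium. The EBSS and full medium libraries of all of these were far apart. Of 18 fatty acid synthesis genes 11 fell and none rose (7 fell without full medium replicate 2). On the scaled values alone 2 of the 26 cholesterol genes were called higher and 17 lower, and 2 of the 18 higher and 11 lower. The desaturase Scd2 was at 68.5, 71.02 and 57.3 TPM in EBSS and 686, 676 and 683 TPM in full medium, and the elongase Elovl5 at 10.5, 9.49 and 10.98 TPM in EBSS and 90.9, 92.7 and 96.3 TPM in full medium. Genes of fatty acid oxidation and PPAR targets leaned the other way, with 7 of 32 higher and 1 lower (9 and 4 without EBSS replicate 3). Of the 32, 2 had passed the filter through EBSS alone and so had to be higher. Pdk4, the kinase that closes pyruvate dehydrogenase, rose to 36.3, 31.9 and 42.4 TPM in EBSS, against 11.5, 10.6 and 11.4 TPM in full medium. Plin2, a lipid droplet coat protein, rose to 467, 468 and 464 TPM in EBSS, against 206, 198 and 198 TPM in full medium. Cpt2, the inner carnitine transferase, was the member that fell, at 3.92, 2.62 and 0.158 TPM in EBSS and 18.9, 18.9 and 19.3 TPM in full medium.

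Genes of the secretory pathway mostly fell. Of 62 genes for protein entry into the ER and for traffic between ER and Golgi, 34 fell (54.8%) and none rose. Spcs3, of the signal peptidase, was at 25.7, 30.2 and 31.4 TPM in EBSS and 266, 246 and 271 TPM in full medium, and Arcn1, a COPI coat subunit, at 26.5, 27.8 and 31.7 TPM in EBSS and 185, 179.7 and 188 TPM in full medium. Of 30 ER chaperone and folding genes 16 fell (20 without EBSS replicate 3) and 2 rose. The collagen hydroxylases Plod2 (4.56, 5.104 and 6.34 TPM in EBSS and 52.5, 52.5 and 53.5 TPM in full medium) and P4ha1 (23.4, 27.7 and 32.03 TPM in EBSS and 159.7, 159 and 165 TPM in full medium) were among the largest falls. The co-chaperone Dnajc3 fell to 6.69, 7.74 and 7.75 TPM in EBSS, against 52.8, 54.5 and 57.9 TPM in full medium. Against this, the co-chaperone Dnajb9 rose to 110.2, 109 and 131 TPM in EBSS, against 25.7, 27.9 and 30.02 TPM in full medium, and Hspa5, the chaperone BiP, rose to 1664, 1537 and 1961 TPM in EBSS, against 1293, 1333 and 1338 TPM in full medium (change 0.37, adjusted p = 0.0102). Xbp1, the transcription factor of the unfolded protein response, fell to 9.86, 13.2 and 5.95 TPM in EBSS, against 46.3, 46.4 and 45.7 TPM in full medium. Of 26 sensors and degradation genes 2 rose and 6 fell. Of 35 proteasome genes none rose and 6 fell, a smaller share than that of all tested genes. On the scaled values alone 15 of the 35 were called higher and 6 lower. Among 37 heat shock genes 8 rose and 5 fell, the inducible HSP70 gene Hspa1a being at 125, 154 and 103 TPM in EBSS and 13.1, 14.5 and 13.8 TPM in full medium. Its neighbour Hspa1b was at 353, 417 and 342 TPM in EBSS, against 52.03, 58.6 and 56.95 TPM in full medium. Their sequences are nearly identical, so reads may be split between them.

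Extracellular matrix genes were among the largest falls. Of 20 collagens 17 fell and 1 rose (0 without full medium replicate 2). Of 39 matrix glycoproteins and proteoglycans 29 fell and 1 rose, and of 30 crosslinking and remodelling enzymes 25 fell and none rose. Of these lists 1, 3 and 3 members had passed the filter through full medium alone. Dcn, decorin, which binds collagen fibrils, was at 1.97, 1.84 and 0.299 TPM in EBSS and 156, 157 and 156 TPM in full medium (change -6.15 ± 0.32 SE, adjusted p = 1.47e-05). Tnc, tenascin C, was at 8.78, 11.2 and 11.1 TPM in EBSS and 548, 592 and 569 TPM in full medium. Igfbp3, which binds insulin-like growth factors, was at 2.17, 1.19 and 0.379 TPM in EBSS and 144, 139.7 and 148 TPM in full medium. Col3a1, a fibrillar collagen, was at 23.8, 22.5 and 23.7 TPM in EBSS, against 587, 612 and 620.01 TPM in full medium. Lox, the crosslinking oxidase, was at 33.7, 37.3 and 34.2 TPM in EBSS, against 654, 599.7 and 662 TPM in full medium, and Has2, a hyaluronan synthase, at 0.609, 0.481 and 1.37 TPM in EBSS, against 65.04, 66.3 and 68.2 TPM in full medium. The EBSS and full medium libraries of each of these did not overlap. Of 38 target genes of YAP, TGF-beta and SRF, 27 fell and 2 rose, and 1 had passed the filter through full medium alone and 1 through EBSS alone. Ccn2, a classical YAP target, was at 62.2, 66.03 and 72.8 TPM in EBSS and 1353, 1379 and 1404 TPM in full medium. Tpm1, a tropomyosin under SRF control, was at 285, 280.2 and 256 TPM in EBSS and 2764, 3004 and 2914 TPM in full medium.

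The fibroblast label was read against its markers. Of 12 fibroblast markers tested 5 fell and none rose; Col1a1 was at 184, 251 and 171 TPM in EBSS and 1056, 1047 and 1049 TPM in full medium, and the others that fell were Col1a2, Lum, Dcn and Prrx1. Vim, S100a4 and Snai2 were called in neither direction on both scales. The summed TPM of the 14 markers of the list was 4709, 5326 and 4334 in EBSS, against 6898, 7027 and 7012 in full medium, with Thy1 at most 1.32 TPM in EBSS and 1.08 TPM in full medium and Fap at most 0.505 TPM in EBSS and 0.714 TPM in full medium. Markers of other cell types were mostly low. Among those that missed the filter, the highest EBSS and the highest full medium level were 7.47 and 0.227 TPM for Cldn7 (epithelial), 5.94 and 0.501 TPM for Bglap (bone), 4.48 and 0.0868 TPM for Pecam1 (endothelial) and 2.31 and 0.0330 TPM for Gfap (neural). Of 9 epithelial markers 4 were tested and 2 rose, the keratins Krt8 (5.9003, 6.48 and 4.903 TPM in EBSS and 1.77, 1.499 and 1.84 TPM in full medium) and Krt19 (203, 218 and 211 TPM in EBSS and 154, 164 and 169 TPM in full medium). Of 4 tested skeletal muscle markers 3 fell, and these 3 had passed the filter through full medium alone and so had to be lower. Of 5 neural markers 2 fell (Gap43 and Nes) and of 4 adipocyte markers Fabp4 fell. Of 1 endothelial marker, Kdr, and 2 cartilage and bone markers, Sox9 and Runx2, none was called on both scales: Kdr was at 1.14, 1.16 and 2.64 TPM in EBSS and 3.13, 2.94 and 2.8003 TPM in full medium, and Sox9 at 6.46, 6.44 and 6.87 TPM in EBSS and 12.1, 13.7 and 13.1 TPM in full medium. Of 3 tested macrophage markers Lyz2 rose, which rests on EBSS replicate 3 in level and was lost without any 1 of the full medium libraries.

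Interferon-stimulated genes were the list with the largest share of falls. Type I interferon is known to drive these genes through the interferon-stimulated response element. Of 49 tested, 45 fell (91.8%, 46 without EBSS replicate 3) and none rose; 13 had passed the filter through full medium alone and so had to be lower. The median change was -2.92 as deposited and -2.18 after scaling. Usp18, the protease that removes ISG15 from proteins, was at 0.671, 0.625 and 0.106 TPM in EBSS and 55.7, 53.8 and 56.2 TPM in full medium (change -5.29 ± 0.18 SE, adjusted p = 5.10e-06). Usp18 was among the 13 that had to be lower. Isg15 itself was at 8.52, 12.6 and 10.2 TPM in EBSS, against 173, 174 and 183 TPM in full medium. Ifit1, which binds foreign RNA caps, was at 5.08, 5.24 and 4.12 TPM in EBSS and 54.5, 54.7 and 56.1 TPM in full medium. The GTPase Gbp2 was at 1.84, 1.94 and 2.85 TPM in EBSS, against 37.9, 40.7 and 38.8 TPM in full medium, and the GTPase Irgm1 at 5.602, 8.79 and 6.83 TPM in EBSS, against 94.6, 91.8 and 90.8 TPM in full medium. No EBSS library overlapped full medium for any of these. Of 19 MHC class I and immunoproteasome genes 8 fell and 1 rose (12 fell without EBSS replicate 3 and 5 without any 1 of the full medium libraries), and of 38 chemokines and cytokines 20 fell and 2 rose, 6 having passed the filter through full medium alone, the interleukin 33 receptor Il1rl1 falling to 21.8, 16.6 and 42.6 TPM in EBSS, against 384, 406 and 401 TPM in full medium. Members of the Ifit, Gbp and Oas families are similar in sequence, so their reads may be split.

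The response element (GAAA, any 2 bases, then GAAA, on either strand) was found in the 250 bases before the start of 17 of 37 interferon-stimulated genes with a RefSeq promoter and of 3.09% of all 9639. Of the 17, 16 fell, against 45 of the 49 tested in the whole list, so the falls do not set the carriers apart. This motif was added after the falls were seen. The promoters of 4 genes show it in different arrangements, in capitals, 60 bases each, 5′ to 3′ in the direction of the gene (RefSeq, GRCm38.p6): Isg15 at chr4:156200862-156200921 (minus strand), Gbp2 at chr3:142620579-142620638 (plus), Ifit1 at chr19:34640760-34640819 (plus) and Irgm1 at chr11:48871421-48871480 (minus). Overlapping matches merge into 1 run of capitals in Isg15 (3 matches) and Irgm1 (2 matches), Gbp2 has 1 match on the other strand and Ifit1 has 2 such matches apart from each other:
Isg15: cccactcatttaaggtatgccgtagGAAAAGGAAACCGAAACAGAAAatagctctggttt
Gbp2: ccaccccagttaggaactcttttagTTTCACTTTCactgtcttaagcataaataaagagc
Ifit1: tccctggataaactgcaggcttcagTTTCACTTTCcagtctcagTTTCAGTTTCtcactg
Irgm1: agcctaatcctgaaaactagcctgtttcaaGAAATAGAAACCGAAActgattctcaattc

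Mitosis genes mostly fell and immediate early genes mostly rose. Of 61 mitosis genes 38 fell (62.3%) and 1 rose, whereas of 60 DNA replication genes 16 fell (26.7%) and 6 rose (3 without any 1 of the full medium libraries). After scaling alone 24 DNA replication genes were called higher and 16 lower, against 7 and 38 mitosis genes. Plk1, the kinase of mitotic entry, was at 12.4, 16.7 and 5.796 TPM in EBSS and 86.2, 90.3 and 88.03 TPM in full medium. Cyclin A, Ccna2, was at 21.2, 19.8 and 22.6 TPM in EBSS and 136, 134 and 139 TPM in full medium. Of 25 immediate early genes, which serum is known to induce within minutes, 14 rose and 3 fell, the same counts as without EBSS replicate 3. Fos was at 86.4, 95.1 and 85.1 TPM in EBSS, against 14.4, 14.7 and 13.9 TPM in full medium (change 2.55 ± 0.07 SE, adjusted p = 3.27e-06), and Egr1 at 295, 331 and 383 TPM in EBSS, against 154, 167 and 164 TPM in full medium. The AP-1 member Fosl2 fell to 19.4, 19.9 and 16.2 TPM in EBSS, against 127, 128 and 126 TPM in full medium. Of 20 MAPK feedback genes 8 fell and 3 rose (8 and 5 without EBSS replicate 3): Errfi1, an inhibitor of the EGF receptor, fell to 23.1, 19.04 and 19.7 TPM in EBSS, against 268, 266 and 275 TPM in full medium, and the phosphatase Dusp4 rose to 34.6, 36.6 and 39.7 TPM in EBSS, against 5.52, 4.83 and 4.77 TPM in full medium. Of 26 FoxO and serum withdrawal genes 7 rose and 1 fell, Txnip, which blocks glucose uptake, being at 267, 242 and 211 TPM in EBSS and 44.05, 48.9 and 48.9 TPM in full medium and Irs2, an adaptor of the insulin receptor, at 41.05, 42.97 and 42.5 TPM in EBSS and 12.3, 12.7 and 12.7 TPM in full medium. Of 31 p53 targets and CDK inhibitors 6 rose and 5 fell, with Mdm2 at 733, 583 and 797 TPM in EBSS and 207, 207 and 215 TPM in full medium and Cdkn2b at 19.8, 18.8 and 22.5 TPM in EBSS and 118, 132 and 130.01 TPM in full medium.

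**Figure D4:**
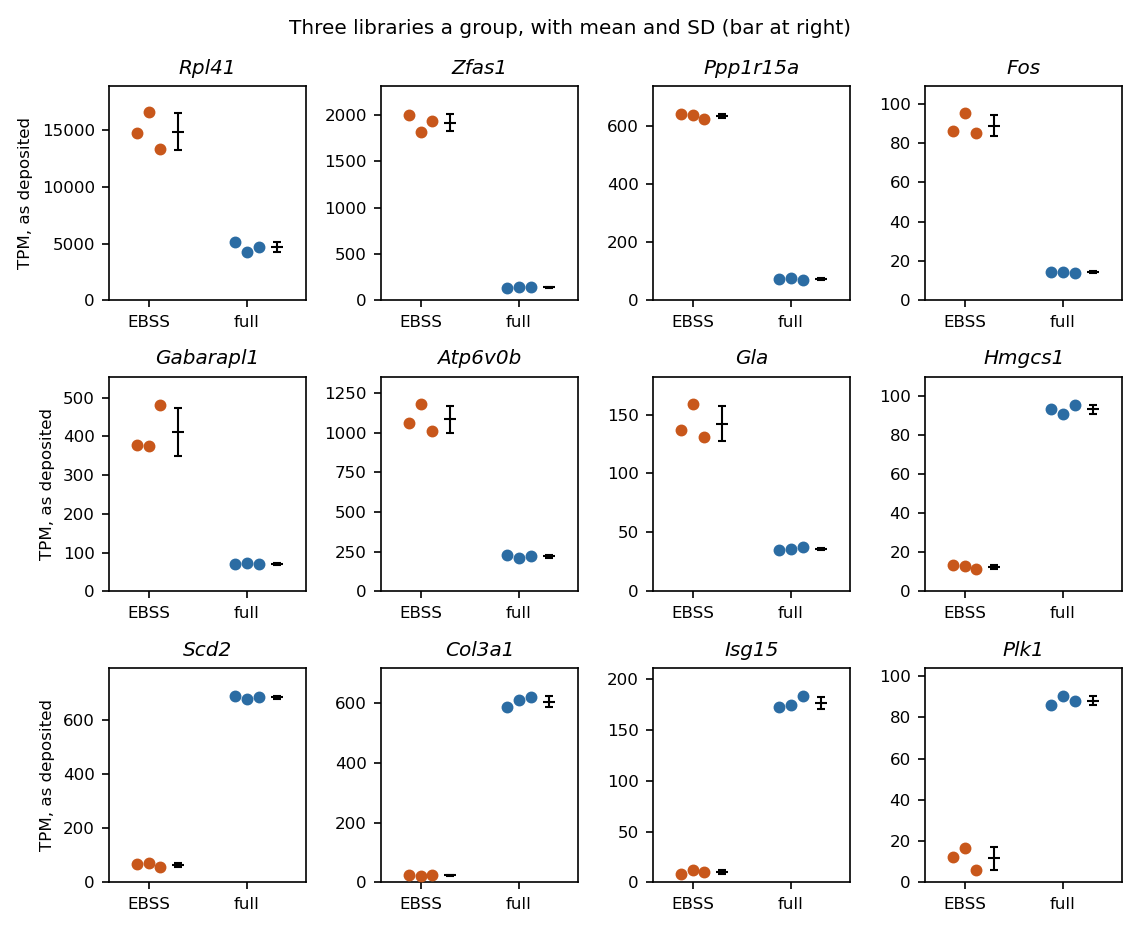
TPM as deposited (vertical axes from 0) of 12 genes in the 3 EBSS libraries (orange) and the 3 full medium libraries (blue), with mean and SD at the right of each group. The first 7 genes were higher in every EBSS library than in any full medium library and the last 5 lower, Isg15 at 8.52 to 12.6 TPM in EBSS and 173 to 183 TPM in full medium.

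Energy metabolism and the remaining lists gave smaller groups of calls. Of 30 glycolysis and hypoxia-linked genes 15 fell and 3 rose: the lactate exporter Slc16a3 was at 1.17, 1.55 and 1.397 TPM in EBSS and 42.2, 46.8 and 44.1 TPM in full medium. Pdk1, a hypoxia-inducible kinase, was at 3.23, 4.08 and 2.99 TPM in EBSS and 31.9, 30.8 and 32.5 TPM in full medium. Of 37 complex I genes 3 rose and 2 fell, and of 38 genes of complexes II to V 6 rose and 2 fell (3 rose without EBSS replicate 2 or full medium replicate 2 or 3), Cox4i1 being at 1574, 1608 and 1516 TPM in EBSS and 809, 769 and 727 TPM in full medium. The direction of most calls in these 2 lists depended on the scale. For complex I, 3 were called higher and 22 lower as deposited, against 22 and 2 after scaling. For complexes II to V the counts were 6 and 26 as deposited, against 23 and 2 after scaling. Of 33 NRF2 targets 10 rose and 4 fell: Hmox1, haem oxygenase, was at 504, 629 and 522 TPM in EBSS and 177, 159.7 and 151 TPM in full medium, and G6pdx, the entry enzyme of the pentose phosphate pathway, at 18.2, 15.2 and 19.8 TPM in EBSS and 105, 105 and 104 TPM in full medium. Of 12 iron genes 2 rose and 7 fell, the iron sensor Ireb2 at 11.7, 9.25 and 6.195 TPM in EBSS and 50.6, 46.6 and 50.04 TPM in full medium. Of 12 polyamine genes 4 rose and 1 fell, Oaz1, the antizyme, at 1814, 1869.9 and 1773 TPM in EBSS and 835, 767 and 823 TPM in full medium. Of 17 clock genes 7 rose and 2 fell, Per1 at 31.7, 43.3 and 30.3 TPM in EBSS and 8.44, 8.701 and 8.29 TPM in full medium and Nr1d1 at 94.9, 95.04 and 88.5 TPM in EBSS and 27.5, 29.3 and 28.7 TPM in full medium. Among the 17, 2 had passed the filter through full medium alone and so had to be lower. An E-box stood in the promoters of 5 of 15 clock genes and of 10.0% of all 9639. Of 21 SR factors and CLK kinases 7 rose and 2 fell, the kinase Clk1 at 191, 178 and 159 TPM in EBSS and 57.6, 55.4 and 53.3 TPM in full medium. Of 20 H3K4 methyltransferase genes 2 rose, Setd1a (65.4, 63.3 and 71.95 TPM in EBSS and 33.7, 37.5 and 35.2 TPM in full medium) and Kmt2d (change 0.34), and 2 fell, Pagr1a (-1.97) and Wdr82 (-1.36); the counts were 1 and 1 without any 1 of the full medium libraries. Of 4 histone genes that passed the filter 1 rose and 1 fell. Among the largest rises outside the lists were Serpinf2, the plasmin inhibitor, at 26.001, 23.6 and 21.7 TPM in EBSS and 0.279, 0.241 and 0.207 TPM in full medium, Slco4a1, an organic anion carrier, at 41.7, 41.8 and 44.5 TPM in EBSS and 1.55, 1.65 and 1.503 TPM in full medium, and Slc23a3 at 28.7, 31.5 and 12.5 TPM in EBSS and 0.601, 0.489 and 0.434 TPM in full medium. Serpinf2 and Slc23a3 had passed the filter through EBSS alone and so had to be higher. Among the largest falls outside the lists were Tuba8, a tubulin (-5.40), Ndnf (-5.35), Penk, proenkephalin (-5.24), and the Wnt receptor Fzd1 (-5.15). Ndnf had passed the filter through full medium alone and so had to be lower.

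The same medium change in the 6 libraries labelled knockout, which share none with those above, was set beside it in 1 fit over all 12 libraries. The EBSS effect differed between the labels at 77.4% of tested genes as deposited and at 67.0% after scaling. It differed in the same direction on both scales at 5580 genes (45.9% of those tested). The wildtype label had the lower effect at 4216 of them and the higher at 1364. In the knockout label 3221 genes were higher in EBSS (26.5%) and 2345 lower (19.3%). Knockout-labelled EBSS replicate 1 lay apart from its group at some genes, such as Has2 (4.67, 64.1 and 63.6 TPM) and Tuba8 (28.9, 105 and 96.8 TPM). That library was kept in the fit, and its part in these counts was not tested. Of the 1155 genes that rose in the wildtype label 173 (14.98%) were also higher in the knockout label, where they make up 5.37% of the higher genes. Of the 3923 that fell, 363 (9.25%) were also lower, which is 15.5% of the lower genes there, and 1695 (43.2%) were higher. As deposited, interferon-stimulated genes had a median change of -2.92 in the wildtype label and 1.82 in the knockout label, and 47 of 49 differed. For collagens the medians were -1.92 and 1.26, and 17 of 20 differed. Cytosolic ribosomal protein genes had medians of 0.94 in the wildtype label and -0.19 in the knockout label (73 of 79 differed), and lysosomal membrane and pump genes 0.26 and -0.60 (16 of 27 differed, 13 of those that rose being lower in the knockout label). Immediate early genes had medians of 0.48 and 1.00, and 12 of 25 differed. Of the 14 that rose in the wildtype label 7 were also higher in the knockout label and 2 were lower there. Of the 3 that fell, 2 were higher in the knockout label. All 12 of the largest falls were at least 2-fold higher in knockout-labelled EBSS than in knockout-labelled full medium.

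**Figure D5:**
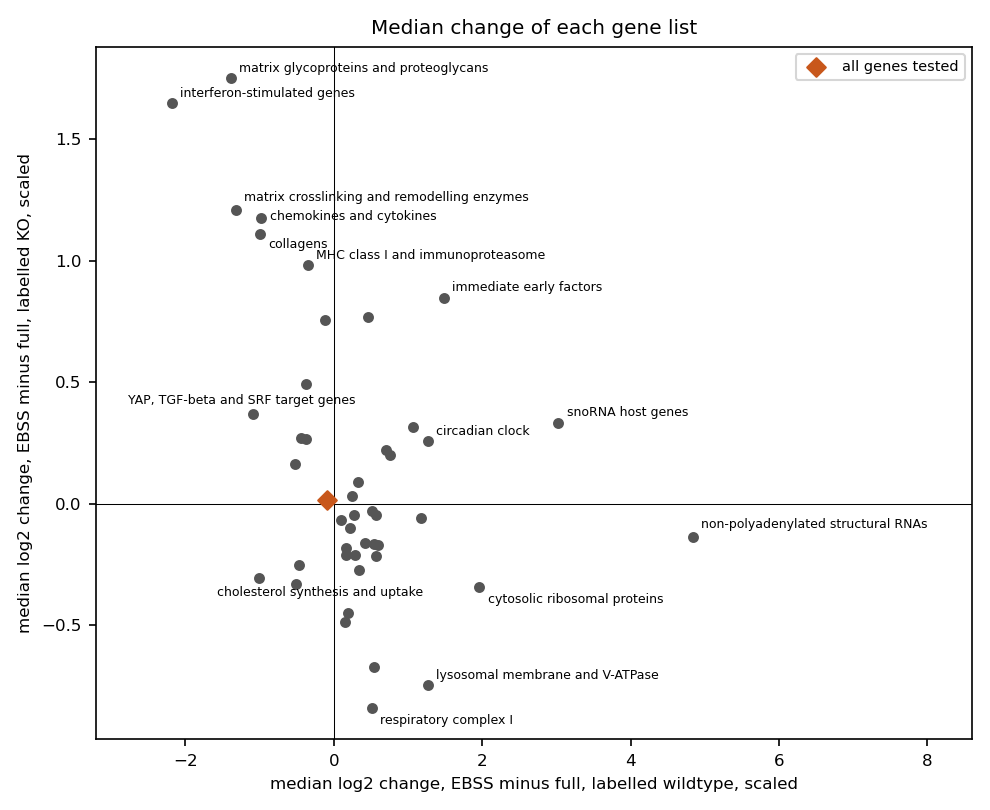
Median log2 change of each gene list, EBSS minus full medium after scaling, in the libraries labelled wildtype (horizontal) and in those labelled knockout (vertical); the diamond marks all tested genes. Matrix and interferon lists lie at the upper left, lower in the wildtype label and higher in the knockout label, and immediate early factors at the upper right, higher in both.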

How the data were processed

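Polyadenylated RNA, per the labels, was sequenced from 12 libraries, 6 of them analysed as the main comparison. The values are TPM deposited by the authors for 25117 gene symbols; Salmon and mm10 are named in the submitters' processing notes, while versions, annotation and depth are unknown from the labels, so no counting interval is given. Levels as log2(TPM + 1) were fitted with limma 3.58.1 (R 4.3.3, variance trend, Benjamini-Hochberg adjustment over 12150 genes), as deposited and after median-of-ratios scaling; fold changes on this scale understate those of low genes. The fit was tested on simulated data. Gene lists and members were chosen with earlier results of these data known. Named genes were the 12 largest rises and falls at a mean of at least 5 TPM, up to 4 genes of each list, and genes named after their values were seen. Coordinates came from GENCODE M21 (mm10) and promoter sequence from RefSeq (GRCm38.p6). Replicate numbers did not pair the libraries: same-numbered deviations correlated at -0.054, -0.049 and -0.014. Alternatives were other pseudocounts, filters, normalizations, variance settings, a replicate block, a 2-fold minimum and each library left out. The liver list, the interferon motif, the counts by list under these settings and the rule for the same call in both labels were chosen after seeing the data. Figures used Python 3.11.15 and matplotlib 3.10.9. Some genes are not reported here.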

Additional observations from a re-analysis of the deposited data

Results flagged for a closer look

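The EBSS effect differed between the labels by the test of the difference itself, in the fit of all 12 libraries with Benjamini-Hochberg adjusted p under 0.05, at 9406 genes as deposited and 8146 after scaling. The difference, the EBSS change in the wildtype label minus that in the knockout label on the log2 scale, was -2.52 ± 0.19 SE for the targeted gene Rbbp5 (adjusted p = 3.14e-07). The EBSS minus full medium value of Rbbp5 as deposited was -0.98 in the wildtype label and 1.54 in the knockout label. The difference was -13.73 for H19, -12.62 for Crabp1 and -9.72 for Gjb2, which was listed at 0 in all 3 wildtype-labelled EBSS libraries. H19, Crabp1 and Gjb2 were lower in EBSS in the wildtype label and higher in EBSS in the knockout label. In the wildtype label Rbbp5 was -0.02 after scaling (adjusted p = 0.874), so it was not called on both scales. Medium and the genotype behind the EBSS labels cannot be told apart in these values.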

How the results depend on the processing

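Counts of calls moved with scaling and strictness. Median-of-ratios scaling gave 3649 higher and 3923 lower, quantile normalization 3538 and 3817, and leaving out ribosomal protein genes and structural RNAs 1757 higher, both as deposited and on both scales. With a 2-fold minimum in the test, 267 were higher and 3404 lower as deposited, 882 and 563 after scaling, and 267 and 563 on both scales. With each library left out in turn, 977 to 1483 were higher and 8015 to 9588 lower as deposited, 3041 to 5013 and 2910 to 5094 after scaling, and 977 to 1483 and 2910 to 5094 on both scales; the highest count on both scales in each direction was without EBSS replicate 3. A fit with a replicate block called 1074 higher and 8546 lower as deposited, 3380 and 3507 after scaling, and 1073 and 3507 on both scales. Same-numbered libraries did not deviate together, so the block result says nothing of pairing.

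Signs turned round for some named genes, none of them called on both scales; the cause was not tested. As deposited, Scarna13 was -0.59 and -0.0907 with pseudocounts of 0.1 and 0.5. Under quantile normalization Asns was 0.44, Eif2ak3 0.83, Eif2b5 0.35, Gcn1 0.25, Kdr 0.46, Ppp1r15b 0.53, Rbbp5 0.0534, Snord17 0.0671, Sox9 0.23, Terc 0.55 and Tfeb 0.88. Without ribosomal protein genes and structural RNAs Asns was 0.29, Eif2ak3 0.10, Eif2b5 0.0888, Ppp1r15b 0.0525 and Tfeb 0.13. Under scaling Asns was 0.90, Eif2ak3 0.67, Eif2b4 0.10, Eif2b5 0.70, Gcn1 0.34, Kdr 0.0601, Ppp1r15b 0.66, Sox9 0.0331 and Tfeb 0.70. After scaling, Sox9 was -0.00380 with a mean of at least 5 TPM. With library weights Kdr was -0.15, Rbbp5 0.0184 and Terc 0.46. With each library left out in turn, Asns ran between -0.28 and 0.0267, Impact ran between -0.0664 and 0.20, Scarna13 ran between -0.37 and 0.67 as deposited, and Kdr ran between -0.19 and 0.21, Rbbp5 ran between -0.0728 and 0.088, Snord17 ran between -0.92 and 0.0417, Sox9 ran between -0.00993 and 0.0727, Terc ran between -0.30 and 0.47 after scaling.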

Other observations

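Some genes moved the same way under both labels. Besides Fos (2.55 in the wildtype label and 1.83 in the knockout label) they included the immediate early genes Egr1 (1.05 and 3.55) and Zfp36 (1.30 and 1.58), the Notch target Hes1 (3.48 and 1.43), and the metallothionein Mt2 (2.11 and 1.41). Snhg12 (3.91 and 1.32) and Atf5 (1.85 and 1.96) were also higher in both. In the knockout label Snhg12 was at 234, 68.0 and 58.6 TPM in EBSS, against 39.0, 36.1 and 41.3 TPM in full medium. EBSS replicate 1 thus makes up much of its change there. The chemokine Ppbp (-2.92 and -2.69) and the semaphorin Sema3c (-2.74 and -2.11) were lower in both. These are log2 changes as deposited, and the genes were chosen after their values were seen.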
